A study of Saccharomyces cerevisiae with 72 samples.

Results

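A set of 10 genes of the glucose transport and glucose sensing system of budding yeast were followed across 72 expression arrays. They are the hexose transporter genes HXT1, HXT2, HXT3, HXT4 and HXT5, the glucose sensor genes SNF3 and RGT2, the corepressor genes MTH1 and STD1, and the repressor gene RGT1. These 10 genes, of 5656 named genes on the array, were picked by name, with earlier results of these data known. MTH1 and HXT5 were picked because their signals differed between the genotypes of these same arrays, so their levels in the mutants are described here with standard errors and without a test. The other 8 genes were tested in every comparison. Each gene was read by 1 probe set, a group of short probes to 1 transcript.

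Yeast imports glucose by facilitated diffusion through the Hxt proteins, which differ in affinity. Snf3 and Rgt2 are transporter-like membrane proteins that do not carry glucose but signal its presence. When they are inactive, Mth1 and Std1 hold the DNA-binding protein Rgt1 on HXT promoters together with a general corepressor, and the HXT genes are off. When glucose is sensed, Mth1 and Std1 are phosphorylated by casein kinases, marked by the SCF-Grr1 ubiquitin ligase and degraded, and the HXT genes are transcribed. HXT1 encodes a low-affinity transporter made at high glucose, HXT2 and HXT4 encode higher-affinity transporters made at low glucose, and HXT3 encodes a low-affinity transporter made at both. HXT5 encodes a transporter made in slow growth and stationary phase.

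The study asked how the TOR pathway and general amino acid control direct the transcriptome. The arrays covered 6 Saccharomyces cerevisiae genotypes, each given 2 drugs or none, with 4 arrays in each of 18 groups. The mutants were gcn2 (strain KY654), gcn4 (KY656), gln3 (KY640), gcn2 gln3 (KY641) and gcn4 gln3 (KY643), and the wild type was KY652. GCN2 encodes the kinase that senses uncharged tRNA, GCN4 the activator of amino acid biosynthesis genes that is translated on Gcn2 activity, and GLN3 a GATA factor of nitrogen catabolite genes that TOR keeps in the cytoplasm. The drugs were 3-AT (aminotriazole, an inhibitor of histidine biosynthesis) at 10 mM and rapamycin (an inhibitor of TOR complex 1) at 200 nM, each for 1 h. The medium of all groups was synthetic and held 2% dextrose as the carbon source, 0.5% ammonium sulfate and every amino acid but histidine. Each genotype was 1 strain, and nothing in the labels says whether the 4 arrays of a group came from separate cultures; p-values then measure the spread between these arrays, which may be technical. Arrays measure pooled RNA, in which fewer cells expressing a gene and less RNA per cell cannot be told apart.

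GCN4 signal was 3.85 to 86.8 on the 24 arrays of gcn4 strains, above background on 0 of them, and 8080 to 23622 on the other 48. GLN3 was above background on 0 of 36 arrays of gln3 strains and on 36 of the other 36. GCN2 was above background on 22 of 24 arrays of gcn2 strains and on 47 of the other 48. Its signal had a median of 120 in gcn2 strains and 274 in the others, and the ranges overlapped. Its probes may lie outside the deleted part, which was not tested, so its signal does not settle the genotype of an array. Background was taken as the 30th percentile of an array. The mating type marker genes STE3 and SAG1 of alpha cells were above background on 72 of 72 arrays, and of the a-cell markers AGA2 was above it on 0, STE2 on 5, MFA1 on 25, BAR1 on 51, STE6 on 60 and MFA2 on 67. The summed signal of 6 a-cell markers was 704 to 743 in 3-AT, 828 to 1345 in rapamycin and 326 to 514 in untreated wild type; its part in the results was not tested. An actin 3'/5' probe ratio of 43.2 to 230, against 1.31 to 5.03 on the other 69, set 3 arrays apart, namely gcn2 gln3 3-AT replicate 1, gcn2 gln3 rapamycin replicate 1 and gcn4 gln3 rapamycin replicate 2. Results are given with and without these 3 arrays, which lie in no wild-type group but enter the error estimate shared by all groups: the median residual SD over probe sets was 0.41 with them and 0.28 without on the log2 scale.

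In wild type, 3-AT lowered HXT2 and HXT4 and rapamycin lowered HXT1 and HXT2, while HXT5 rose with rapamycin and the sensor gene RGT2 rose with both drugs. The 3-AT rise of RGT2 depended on the scaling. The rapamycin fall of HXT2 was called in 3 of 8 fits that left out 1 of the compared arrays. With 3-AT, 3 of the 10 genes passed an adjusted p of 0.05 (limma's moderated test, Benjamini-Hochberg over 6869 probe sets), 1 higher and 2 lower, where 35.8% of all probe sets passed (22.2% higher and 13.6% lower). With rapamycin 4 passed, 2 higher and 2 lower, where 37.8% passed (22.2% higher and 15.7% lower). Both comparisons share the 4 untreated arrays. The share of the 10 was near that of all probe sets with both drugs. The median change of the 10 genes was -0.27 with 3-AT and 0.24 with rapamycin on the log2 scale, against 0.09 and 0.14 over all probe sets. Without the 3 arrays 5 and 6 passed, where 53.7% and 54.8% of all probe sets did.

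**Figure D1:**
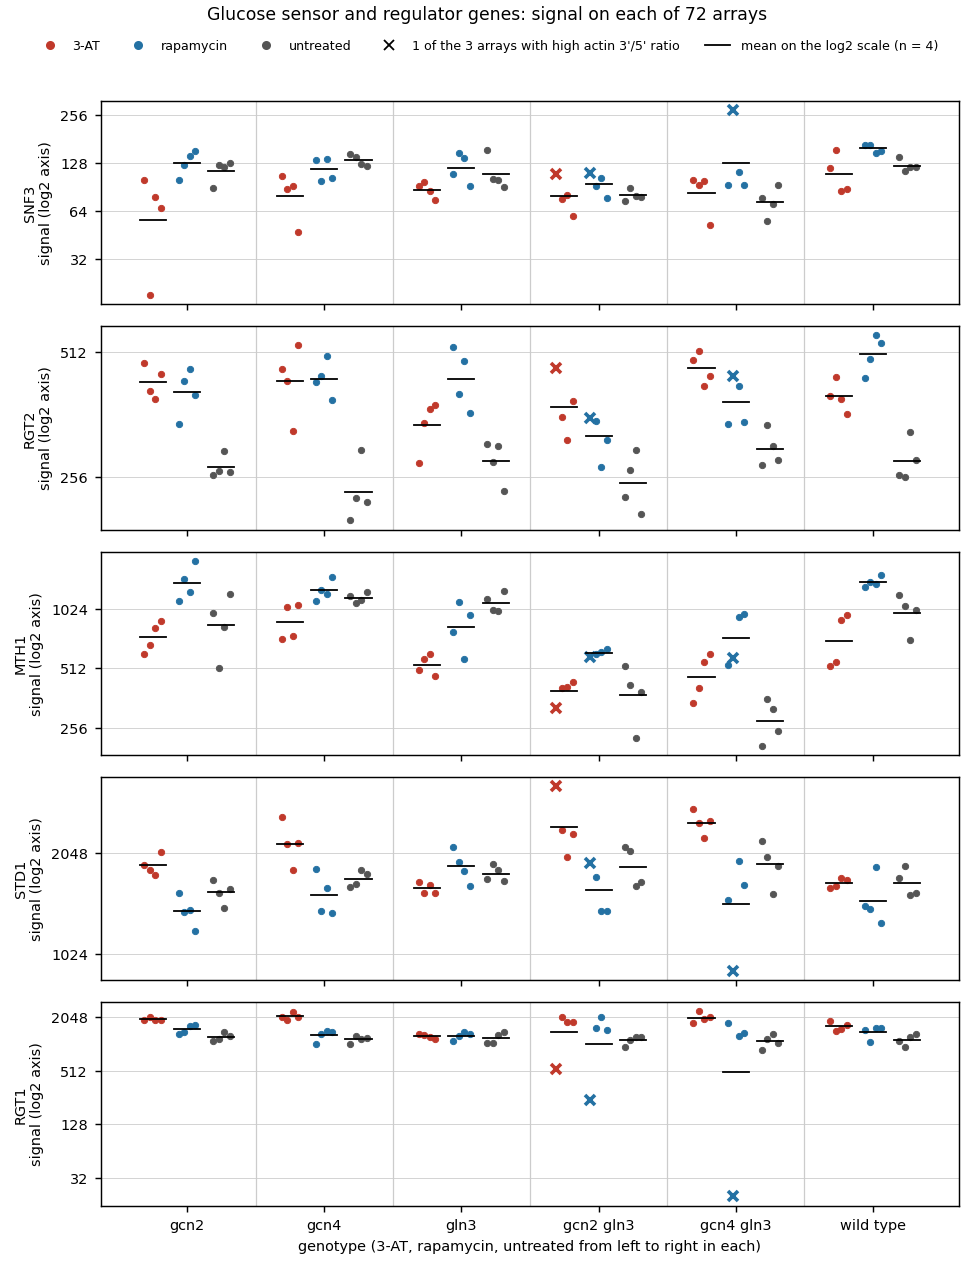
Signal of the glucose sensor and regulator genes on each array (log2 axis), by genotype and treatment; points are arrays, crosses the 3 arrays with high actin 3'/5' ratio and bars the mean on the log2 scale (n = 4). Group means of RGT2 were above the untreated mean with both drugs in each genotype, and MTH1 was lowest in the untreated gcn2 gln3 and gcn4 gln3 strains; the cross at the bottom of the RGT1 panel is an array at 19.7.

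Of the 2 sensor genes, RGT2, for the sensor of high glucose, gave 401, 447, 395 and 362 with 3-AT and 444, 493, 561 and 538 with rapamycin in wild type, against 258, 256, 328 and 281 untreated. Every array of both drugs lay above every untreated one. On the log2 scale the 3-AT change was 0.52 ± 0.15 (standard error, adjusted p = 0.004 in limma's test). The rapamycin change was 0.86 ± 0.15 (2.8e-06). The 3-AT rise rested on the scaling: quantile normalization gave 0.28 (adjusted p = 0.12) and centring each array on its median gave 0.26 (adjusted p = 0.12).

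In the mutants RGT2 passed as higher in 8 of 10 drug comparisons, with changes of 0.29 to 0.91. Among the 80 tests of 8 genes in the mutants, 32 passed, 11 higher and 21 lower, which is 40% where 36.1% of all tests did (23.4% higher and 12.7% lower). For gcn2, gcn4, gln3 and then the double mutants gcn2 gln3 and gcn4 gln3, the 3-AT counts of 8 genes were 4, 5, 2, 4 and 5, where 38.4%, 45%, 30.7%, 39.2% and 42.1% of all probe sets passed. With rapamycin it was 2, 3, 2, 2 and 3 in the same order of strains, where 29.3%, 34.7%, 31.4%, 27% and 43.1% passed. RGT2 with 3-AT in gln3 gave 276, 344, 372 and 382 with the drug and 306, 278, 304 and 236 untreated, overlapping groups that did not pass (0.29 ± 0.15, adjusted p = 0.14). Rapamycin in gcn2 gln3 did not pass either (0.37 ± 0.15, adjusted p = 0.052), although with replicate number as a block it did (adjusted p = 0.041), as it did without untreated or rapamycin replicate 3 (adjusted p of up to 0.029). The 3-AT rises in gcn2 gln3 (0.61) and gcn4 gln3 (0.65) did not pass after quantile normalization (0.20 and 0.28, adjusted p = 0.3 and 0.12) or median centring (0.22 and 0.27, adjusted p = 0.19 and 0.098). The rise with rapamycin in gcn4 gln3 (0.37, adjusted p = 0.036) was 0.30 without the 3 arrays (adjusted p = 0.082). It was also lost without untreated replicate 1, 3 or 4 or rapamycin replicate 3, with an adjusted p of up to 0.10. No untreated mutant passed against wild type for RGT2 (changes of -0.25 to 0.10).

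SNF3, for the sensor of low glucose, was near background and above it on 49 of 72 arrays. Its signal was 119, 155, 85.8 and 88.4 with 3-AT and 167, 166, 149 and 152 with rapamycin in wild type, against 140, 113, 121 and 121 untreated. The rapamycin arrays lay above every untreated array, but neither change passed (-0.18 ± 0.29, adjusted p = 0.66, and 0.36 ± 0.29, adjusted p = 0.36). In gcn2 and gcn4 cells 0 of 4 arrays with 3-AT were above background, so only a bound holds there. Measured means gave -1.03 (adjusted p = 0.0034) and -0.74 (adjusted p = 0.034), while untreated cells were at least 1.00-fold (gcn2) and at least 1.17-fold (gcn4) above the 3-AT bound, set by the lowest signal counted as above background. The gcn2 call was lost without 3-AT replicate 2 (adjusted p = 0.13), and the gcn4 call without untreated replicate 1 or 2 or 3-AT replicate 4 (adjusted p of up to 0.20). A rise with rapamycin in gcn4 gln3 (0.82 ± 0.29, adjusted p = 0.02) was 0.45 without the 3 arrays (adjusted p = 0.19). It was lost without untreated replicate 2 as well (adjusted p of up to 0.21).

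MTH1, for the corepressor whose own transcription is glucose-repressed, had its highest group mean in wild type with rapamycin and its lowest in untreated gcn4 gln3. Its signal in wild type was 526, 547, 895 and 953 with 3-AT and 1315, 1397, 1358 and 1520 with rapamycin, against 1195, 1057, 707 and 1008 untreated. The rapamycin arrays lay above all others and the 3-AT arrays overlapped the untreated ones. Neither drug passed against untreated, at -0.47 ± 0.23 with 3-AT (adjusted p = 0.11) and 0.52 ± 0.23 with rapamycin (adjusted p = 0.07). The rapamycin change passed with replicate number as a block (adjusted p = 0.047), without the 3 arrays (adjusted p = 0.048) and without untreated replicate 1 (adjusted p = 0.05). The 3-AT change passed after quantile normalization (-0.61, adjusted p = 0.03) and median centring (-0.73, adjusted p = 0.011). It passed as well without untreated replicate 3 (-0.62, adjusted p = 0.043) or 3-AT replicate 4 (-0.61, adjusted p = 0.049). The drugs differed from each other, 3-AT minus rapamycin being -0.99 ± 0.23 (adjusted p = 0.0005).

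Untreated MTH1 was low in both double mutants. It gave 522, 422, 226 and 386 in gcn2 gln3 and 207, 357, 318 and 246 in gcn4 gln3. These 8 arrays lay below every untreated array of wild type and of gcn4 (1183, 1094, 1132 and 1236) and gln3 (1139, 1008, 991 and 1260). Untreated gcn2 was wider, at 978, 511, 829 and 1214, and its lowest array lay inside the range of gcn2 gln3. On the log2 scale the untreated mutants stood at -1.82 ± 0.23 (gcn4 gln3) and -1.39 ± 0.23 (gcn2 gln3) relative to wild type, and at -0.21 to 0.25 in the single mutants.

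The change of MTH1 with a drug had different signs in different mutants, and was not tested. With 3-AT it was 339, 404, 550 and 606 in gcn4 gln3, mostly above its untreated arrays there, a change of 0.75 ± 0.23. In gln3 it was 503, 570, 604 and 467 with 3-AT, all below the untreated arrays, a change of -1.04 ± 0.23. The 3-AT change in gcn2, gcn4 and gcn2 gln3 was between -0.40 and 0.07. With rapamycin the change was 1.39 ± 0.23 in gcn4 gln3 (534, 579, 925 and 966, all above the untreated arrays) and 0.71 in gcn2 and in gcn2 gln3. It was 0.13 in gcn4 and -0.40 in gln3. Across the 18 groups the means spanned 2.34 on the log2 scale. In order of level, the step between gcn2 gln3 with rapamycin and gln3 with 3-AT was the 1 of 17 larger than the larger SD of its 2 groups on that scale.

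STD1, for the paralogue of Mth1, had group means that spanned 0.88 on the log2 scale. In wild type it gave 1612, 1631, 1728 and 1702 with 3-AT and 1430, 1400, 1871 and 1266 with rapamycin, against 1734, 1880, 1541 and 1563 untreated. These groups overlapped and no wild-type comparison passed. With 3-AT STD1 rose in gcn4 gln3 (0.41 ± 0.15, adjusted p = 0.026) and in gcn2 gln3 (0.40 ± 0.15, adjusted p = 0.035). The gcn2 gln3 rise was 0.26 without the 3 arrays (adjusted p = 0.077) and was lost without 3-AT replicate 1 or 2 or untreated replicate 3 or 4 (adjusted p of up to 0.20). The gcn4 gln3 rise was lost without 3-AT replicate 1 or untreated replicate 3 (adjusted p of up to 0.13). After median centring neither passed (adjusted p = 0.98 and 0.88). In gcn4 the 3-AT change of 0.35 passed with the replicate block (adjusted p = 0.038) and not otherwise (adjusted p = 0.058), except without the 3 arrays (adjusted p = 0.0088), without 3-AT replicate 3 (adjusted p = 0.029) or with the compared arrays fitted alone (adjusted p = 0.04). A fall with rapamycin in gcn4 gln3 (-0.39, adjusted p = 0.035) was -0.17 without the 3 arrays (adjusted p = 0.28). It was lost without untreated replicate 1, 2 or 4 too, with an adjusted p of up to 0.35.

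RGT1, for the repressor itself, was the member most touched by the 3 arrays. On those arrays its signal was 534, 239 and 19.7, and in the same 3 groups the other 9 arrays gave 1279 to 2084. RGT1 passed in 0 of 10 mutant drug comparisons with them and in 6, all higher, without them. The part of the actin ratio in this was not tested. In wild type RGT1 gave 1874, 1450, 1518 and 1673 with 3-AT, each above the untreated arrays at 1121, 944, 1237 and 1328. The change was 0.50 ± 0.58 (adjusted p = 0.54) with the 3 arrays and 0.50 ± 0.13 (adjusted p = 0.0014) without them. Without them 3-AT also raised RGT1 in gcn2 (0.66, adjusted p = 3.3e-05), gcn4 (0.85, adjusted p = 2.1e-07), gcn2 gln3 (0.75, adjusted p = 1.5e-05) and gcn4 gln3 (0.89, adjusted p = 8.7e-08). In gln3 the 3-AT arrays (1333, 1307, 1245 and 1163) overlapped the untreated ones (1042, 1049, 1304 and 1421), a change of 0.08 (adjusted p = 0.65 without the 3 arrays). Whether gln3 differed from wild type in this was not shown: its difference did not pass with or without the 3 arrays. The rapamycin change reversed in both double mutants: it was -0.13 and 0.58 (adjusted p = 0.00085) in gcn2 gln3, and -1.15 and 0.41 (adjusted p = 0.017) in gcn4 gln3, with and without the 3 arrays. With the 19.7 kept and rapamycin replicate 1, 3 or 4 left out, the gcn4 gln3 fall passed instead (adjusted p of up to 0.028).

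**Figure D2:**
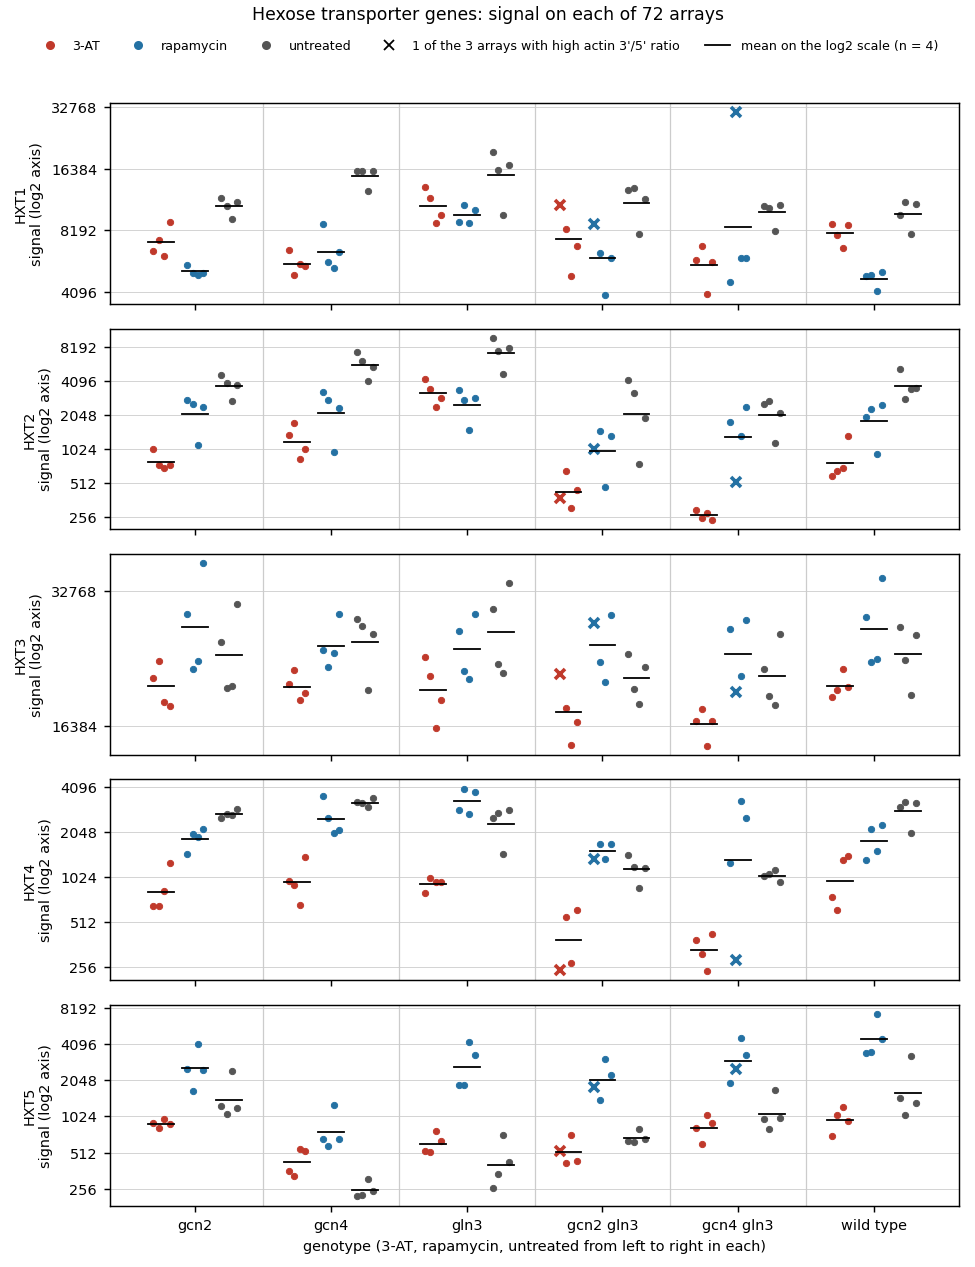
Signal of the 5 hexose transporter genes on each array (log2 axis), by genotype and treatment; points are arrays, crosses the 3 arrays with high actin 3'/5' ratio and bars the mean on the log2 scale (n = 4). Within each genotype the mean of HXT2 and of HXT4 was lower with 3-AT than untreated and that of HXT5 higher with rapamycin than untreated, and HXT3 stayed between 14833 and 37886.

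HXT1 fell with rapamycin in wild type. It gave 4914, 4959, 4154 and 5165 with rapamycin and 8783, 7796, 6700 and 8684 with 3-AT, against 9773, 11319, 7862 and 11006 untreated. Every rapamycin array was below every array of the other groups, and 3-AT arrays overlapped untreated ones. The change was -1.05 ± 0.28 with rapamycin (adjusted p = 0.0022) and -0.32 ± 0.28 with 3-AT (adjusted p = 0.41), and each of the 8 fits that left out 1 array kept the rapamycin call. HXT1 was 0.73 ± 0.28 higher with 3-AT than with rapamycin (adjusted p = 0.037). That call was lost without rapamycin replicate 1, 2 or 3 or 3-AT replicate 1, 2 or 4, with an adjusted p of up to 0.097, and after median centring (0.61, adjusted p = 0.12).

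In the mutants HXT1 passed as lower in 5 of 10 drug comparisons, and without the 3 arrays in 10 of 10. Its lowest mutant changes were both in gcn4, at -1.41 ± 0.28 with 3-AT (adjusted p = 4.1e-05) and -1.22 ± 0.28 with rapamycin (adjusted p = 0.0005). In gcn4 it gave 6607, 4971, 5608 and 5525 with 3-AT, against 15941, 15869, 12706 and 15854 untreated. The 3-AT change in gcn4 minus that in wild type was -1.10 ± 0.40, which did not pass with all arrays (adjusted p = 0.11) and passed without the 3 arrays (adjusted p = 0.0014). Other calls were 3-AT in gcn4 gln3 (-0.86, adjusted p = 0.011, lost without 3-AT replicate 3 at 0.061), rapamycin in gcn2 (-1.05, adjusted p = 0.003) and rapamycin in gcn2 gln3 (-0.89, adjusted p = 0.014). The last was lost without untreated replicate 2 or rapamycin replicate 3 (adjusted p of up to 0.095). With the replicate block, 3-AT in gcn2 gln3 (-0.59, adjusted p = 0.046) and rapamycin in gln3 (-0.64, adjusted p = 0.035) passed too. So did the first without its 3-AT replicate 1 or untreated replicate 3 (adjusted p of up to 0.045) and the second without untreated replicate 3 (adjusted p = 0.026). In gcn4 gln3 with rapamycin 1 of the 3 arrays read 30761 and the other arrays 4618, 6021 and 6018, and without it the change was -0.86 (adjusted p = 0.00027) in place of -0.24 (adjusted p = 0.51).

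HXT2 fell with 3-AT in all 6 genotypes, and it had the widest range among the members, 4.79 on the log2 scale between group means. In wild type it gave 586, 644, 683 and 1324 with 3-AT and 1944, 2316, 925 and 2514 with rapamycin, against 5247, 2843, 3433 and 3538 untreated. No array of either drug reached the lowest untreated array, and the 2 drugs overlapped each other. The changes were -2.26 ± 0.41 with 3-AT (adjusted p = 7.7e-06) and -1.03 ± 0.41 with rapamycin (adjusted p = 0.038). The difference between the drugs was -1.23 ± 0.41 (adjusted p = 0.013), lost without rapamycin replicate 4 (adjusted p = 0.054). The rapamycin call was lost without untreated replicate 1, 3 or 4 or rapamycin replicate 1 or 3, with an adjusted p of up to 0.21 and changes of -1.19 to -0.71.

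Among the mutants the 3-AT change of HXT2 ran from -2.95 ± 0.41 in gcn4 gln3 (adjusted p = 2.3e-08) to -1.20 ± 0.41 in gln3 (adjusted p = 0.019). In gcn4 gln3 the 3-AT arrays gave 291, 248, 277 and 238, against 2546, 2708, 1146 and 2117 untreated. In gln3 they gave 4240, 3437, 2392 and 2874, against 9873, 7544, 4675 and 7986 untreated. The lowest of these gln3 3-AT arrays, 2392, was above the highest 3-AT array of any other strain, 1729 in gcn4. The gln3 call was lost without untreated replicate 1 or 3-AT replicate 3 (adjusted p of up to 0.068), and the difference of its change from that of wild type did not pass, at 1.06. The other 3 mutants lay between -2.29 and -2.23.

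Rapamycin lowered HXT2 in gln3 (-1.53 ± 0.41, adjusted p = 0.0025), gcn4 (-1.41 ± 0.41, adjusted p = 0.0047) and gcn2 gln3 (-1.09 ± 0.41, adjusted p = 0.038). The gcn4 call was lost without rapamycin replicate 3 (adjusted p = 0.059). The gcn2 gln3 call was lost without untreated replicate 1, 2 or 4 or rapamycin replicate 1 or 3 (adjusted p of up to 0.23). In gcn2 the change of -0.83 passed only with the replicate block (adjusted p = 0.032) or with the compared arrays fitted alone (adjusted p = 0.047). In gcn4 gln3 it was -0.63 (adjusted p = 0.21), and -0.18 without the 3 arrays (adjusted p = 0.77). Untreated HXT2 did not pass in any mutant against wild type, at changes of -0.86 to 0.98.

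HXT3 was the steadiest transporter gene. Its signal lay between 14833 and 37886 on all 72 arrays, its group means spanned 0.72 on the log2 scale, and it passed in 0 of 3 wild-type and 0 of 10 mutant drug comparisons by limma. In wild type it gave 19007, 19761, 21999 and 20012 with 3-AT, against 27247, 23004, 19206 and 26197 untreated. The 3-AT change was between -0.43 and -0.23 in the 6 genotypes, negative in each, and the rapamycin change between -0.12 and 0.24. After quantile normalization the rapamycin change passed as higher in gcn2 (0.48, adjusted p = 0.011), gcn4 (0.48, adjusted p = 0.011) and gcn2 gln3 (0.51, adjusted p = 0.008). With the replicate block the 3-AT change passed in gcn4 (-0.33, adjusted p = 0.031) and gln3 (-0.43, adjusted p = 0.007). Both passed without untreated replicate 3 too, and the gln3 change without 3-AT replicate 1 or untreated replicate 2 (adjusted p of up to 0.044 in gcn4 and 0.036 in gln3). With median centring the 3-AT fall passed in each of the 6 genotypes (adjusted p = 0.0019 to 0.045). With the deposited scaling the gln3 fall also passed without the 3 arrays (adjusted p = 0.024). The call for this gene thus changed with the scaling and with the arrays and block fitted.

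HXT4 fell with 3-AT in all 6 genotypes as HXT2 did. With rapamycin both changes were negative in wild type, gcn2 and gcn4, and their signs differed in the strains lacking GLN3. The genes were not tested against each other. In wild type it gave 746, 618, 1326 and 1410 with 3-AT and 1333, 2149, 1533 and 2274 with rapamycin, against 3003, 3253, 2004 and 3197 untreated. All 3-AT arrays lay below all untreated ones, and 2 rapamycin arrays reached into the untreated range. The changes were -1.55 ± 0.36 with 3-AT (adjusted p = 0.00041) and -0.66 ± 0.36 with rapamycin (adjusted p = 0.14, or 0.027 without the 3 arrays). In the mutants the 3-AT change was between -1.76 and -1.33, and 5 of 5 passed (adjusted p = 4.7e-05 to 0.0028). The drugs differed in wild type by -0.88 ± 0.36 (adjusted p = 0.047), a call lost without 3-AT replicate 1 or 2 or rapamycin replicate 2, 3 or 4 (adjusted p of up to 0.19).

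With rapamycin HXT4 was above untreated in the 3 strains lacking GLN3, with changes of 0.50 (gln3), 0.41 (gcn2 gln3) and 0.34 (gcn4 gln3), and below it at -0.55 in gcn2, -0.37 in gcn4 and -0.66 in wild type. With all arrays fitted together 0 of these 6 changes passed; with the compared arrays alone gcn2 (adjusted p = 0.012) and wild type (adjusted p = 0.034) did. In gcn4 gln3 the rapamycin arrays gave 1276, 285, 3301 and 2516, the 285 being 1 of the 3 arrays, against 1029, 1070, 1133 and 952 untreated. Without it the change was 1.07 ± 0.28 (adjusted p = 0.0013), and its difference from the wild-type change was 1.74 (adjusted p = 0.0012). The same difference was 1.00 ± 0.50 with all arrays (adjusted p = 0.25). In gln3 it was 1.16 (adjusted p = 0.52, or 0.054 without the 3 arrays) and in gcn2 gln3 1.07 (adjusted p = 0.44, or 0.057).

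HXT4 was the one tested member that passed between untreated strains. Of 40 tests of 8 genes in 5 mutants, 2 passed, which is 5% where 0.929% of all tests did, and both were HXT4, lower in both double mutants (0.716% of all tests were lower). Over all probe sets 1.31% passed in gcn2 gln3 and 1.18% in gcn4 gln3. The arrays gave 1426, 1199, 862 and 1164 in gcn2 gln3 and 1029, 1070, 1133 and 952 in gcn4 gln3, all below the lowest wild-type array of 2004. The changes were -1.30 ± 0.36 (adjusted p = 0.047) and -1.43 ± 0.36 (adjusted p = 0.018), against -0.28, -0.06 and 0.19 in gln3, gcn2 and gcn4. The gcn2 gln3 call was lost without untreated wild-type replicate 1, 2 or 4 or any 1 of its own 4 arrays, with changes of -1.46 to -1.16 and an adjusted p of up to 0.18. The gcn4 gln3 call was lost without wild-type replicate 1, 2 or 4 or its own replicate 1, 2 or 4, with changes of -1.59 to -1.36 and an adjusted p of up to 0.081. The count of 2 was 1 in some fits that left out an array of a strain outside the comparison, such as untreated gcn2 replicate 1. Without the 3 arrays both passed (adjusted p = 0.00058 and 0.00012), and HXT1 passed as higher in gcn4 (0.60, adjusted p = 0.049) and gln3 (0.62, adjusted p = 0.044). Untreated MTH1 was low in the same pair of strains, but it was picked for differences between genotypes and so adds no support.

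**Figure D3:**
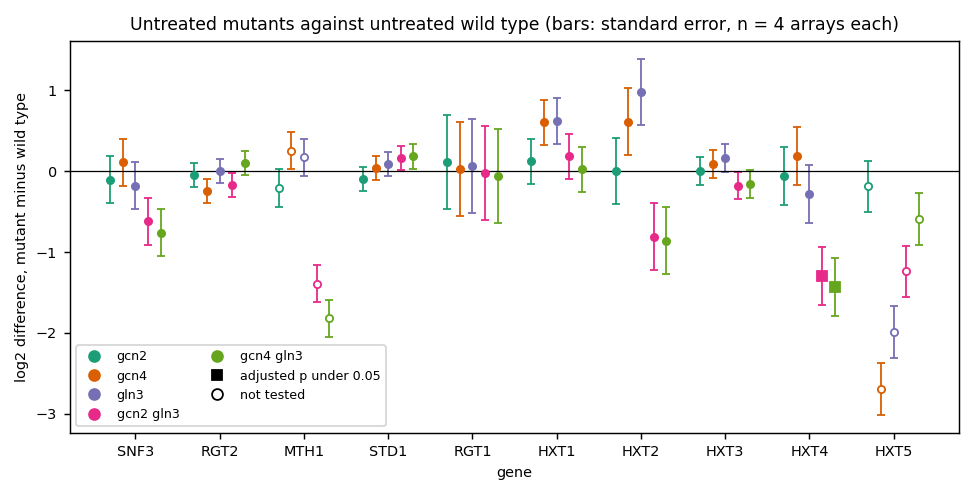
Log2 difference of each member between each untreated mutant and untreated wild type; points are fitted differences, bars standard errors (n = 4 arrays per group), squares mark an adjusted p under 0.05 and open circles the 2 genes that were not tested. HXT4 was low in gcn2 gln3 and gcn4 gln3, at -1.30 and -1.43. MTH1 stood at -1.39 and -1.82 there and HXT5 was lowest in gcn4 at -2.69, both genes picked for differences between genotypes.

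HXT5 rose with rapamycin. Its untreated level varied between strains, which is what it was picked for, so it is not ranked against the other transporter genes in this. In wild type it gave 698, 1049, 1215 and 932 with 3-AT and 3452, 3534, 7263 and 4534 with rapamycin, against 1442, 1054, 3281 and 1334 untreated. All rapamycin arrays lay above all others, by a change of 1.48 ± 0.32 (adjusted p = 0.00013) that held in each of the 8 fits without 1 array. The 3-AT change of -0.75 ± 0.32 did not pass (adjusted p = 0.059), but it did without untreated replicate 2 (-0.95, adjusted p = 0.026), without 3-AT replicate 3 (-0.87, adjusted p = 0.047) and without the 3 arrays (adjusted p = 0.044). It also passed after quantile normalization (-0.86, adjusted p = 0.027) and median centring (-1.01, adjusted p = 0.0056). The 3-AT level was below the rapamycin level by -2.23 ± 0.32 (adjusted p = 6.7e-08). Replicate 3 gave the highest HXT5 signal in 18 of 18 groups and the lowest HXT1 signal in 16 of 18, a pattern noticed after the values were seen.

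In the mutants HXT5 is given without a test. Untreated gcn4 gave 222, 229, 307 and 245 and untreated gln3 258, 342, 719 and 424, all below the lowest untreated wild-type array. The differences from wild type were -2.69 ± 0.32 in gcn4 and -1.99 ± 0.32 in gln3. Both double mutants were less far from wild type than either of these single mutants.

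Untreated gcn2 gln3 gave 637, 626, 798 and 669, a difference of -1.24 ± 0.32. Untreated gcn4 gln3 gave 973, 802, 1701 and 984, which overlapped wild type, a difference of -0.59 ± 0.32. Untreated gcn2 gave 1252, 1066, 2452 and 1200, inside the wild-type range, a difference of -0.19 ± 0.32. Each of the 4 untreated gcn4 gln3 arrays read higher than each untreated gcn4 array; the genotypes are different strains, 1 each.

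The mean of HXT5 was higher with rapamycin than untreated in each mutant, by 0.87 to 2.71 on the log2 scale. In gln3 the drug arrays gave 1861, 1874, 4245 and 3314, above all its untreated arrays, a change of 2.71 ± 0.32. In gcn4 they gave 669, 576, 1274 and 662, also above all untreated ones, a change of 1.60 ± 0.32, yet only the highest of them reached the untreated range of wild type. Rapamycin arrays of gcn4 gln3 gave 1930, 2525, 4617 and 3299 (change 1.46 ± 0.32). Those of gcn2 gln3 gave 1801, 1396, 3053 and 2259 (1.59 ± 0.32), and those of gcn2 2553, 1667, 4126 and 2502 (0.87 ± 0.32).

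With 3-AT the direction for HXT5 was not shared. It was positive in gcn4, at 360, 326, 553 and 529 with the drug (0.79 ± 0.32), and in gln3, at 524, 521, 770 and 645 (0.58 ± 0.32). In both strains the lowest group mean of the strain was the untreated one. It was negative in gcn2 (-0.66 ± 0.32), gcn2 gln3 (-0.40 ± 0.32) and gcn4 gln3 (-0.37 ± 0.32), as in wild type. Ordered over 18 groups, mean HXT5 signal ran from 251 ± 38.9 in untreated gcn4 through 1778 ± 1016 in untreated wild type to 4696 ± 1781 in wild type with rapamycin (SD, n = 4 each). On the log2 scale 2 of the 17 steps between neighbours in this order were larger than the larger SD of the 2 groups, the step above untreated gcn4 and the step below wild type with rapamycin, and the other neighbours lay within their spread. Without the 3 arrays only 1 of the 17 was, the step above untreated gcn4. The steps are a description, since HXT5 was picked for differences between genotypes.

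**Figure D4:**
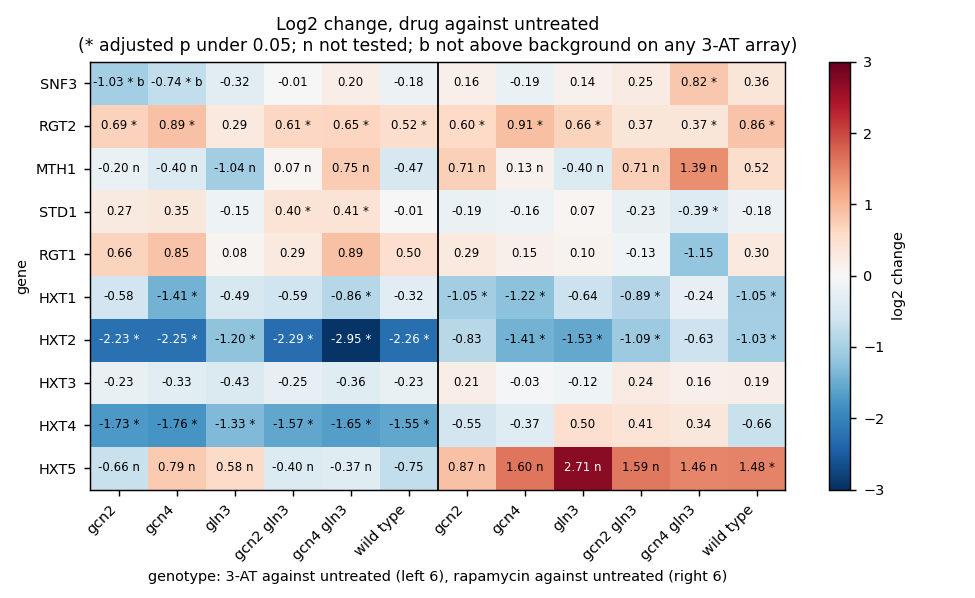
Log2 change with 3-AT (left) and rapamycin (right) against untreated for the 10 genes in 6 genotypes, by colour and number; asterisks mark an adjusted p under 0.05, n a change that was not tested and b a 3-AT group with no array above background. HXT2 and HXT4 were below 0 with 3-AT in each genotype, from -2.95 to -1.20, and HXT5 above 0 with rapamycin in each, from 0.87 to 2.71.

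Whether a mutant's drug response differed from that of wild type was tested for the 8 genes in 80 tests. With limma 0 passed, where 2.98% of all tests did. At an unadjusted p under 0.05 there were 7 of the 80, where 10.7% of the tests over all probe sets were under it. Without the 3 arrays 2 passed (2.5%), the HXT1 and HXT4 differences named above, where 7.5% of all tests did. The standard error of such a difference was 0.40 for HXT1 and 0.50 for HXT4.

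Between 3-AT and rapamycin in wild type 5 of the 10 genes passed, HXT1 higher with 3-AT and HXT2, HXT4, HXT5 and MTH1 lower, where 35.5% of all probe sets passed (19.8% higher and 15.8% lower). Their median was -0.48, against 0.03 over all. HXT3 missed the threshold at -0.42 (adjusted p = 0.05), and passed without the 3 arrays (adjusted p = 0.026), without rapamycin replicate 2 or 3 (adjusted p of up to 0.036) and after median centring (adjusted p = 0.029). RGT2, at -0.34 (adjusted p = 0.064), passed without the 3 arrays (adjusted p = 0.028) and without rapamycin replicate 1 (adjusted p = 0.043). The count was 3 without 3-AT replicate 1 or 2 or rapamycin replicate 4, and 7 without gcn4 gln3 rapamycin replicate 2.

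HXT4, HXT1 and HXT5 stand side by side in the genome annotation, with AHT1 between HXT4 and HXT1, and their patterns were unlike. Over the 18 group means, which share arrays and scaling, Pearson's r was 0.39 between HXT4 and HXT1, -0.47 between HXT1 and HXT5 and 0.23 between HXT4 and HXT5. Without the 3 arrays these were 0.35, -0.53 and 0.28. HXT4 was closer to HXT3 (0.88) and HXT2 (0.84), which lie elsewhere. HXT1 and RGT2 ran opposite each other at -0.81, and at -0.75 without the 3 arrays. RGT1 stood at -0.36 with HXT2 and -0.39 with HXT1, and at -0.84 and -0.70 without the 3 arrays. These are descriptions of 18 means.

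Among 5408 other named genes, the group means most like HXT5 were those of NQM1, a transaldolase paralogue (r = 0.97), GRE1, a stress-induced gene (0.96), and HEF3, a translation elongation factor 3 paralogue (0.93). MTH1 was nearest to GAC1, a regulatory subunit of the Glc7 phosphatase in glycogen metabolism (0.87), PIR3, a cell wall protein gene (0.87), and RGI1 (0.86). HXT1 was nearest to ETT1, UPA2 and GUA1, the GMP synthase gene (0.92, 0.91 and 0.88). HXT2 was nearest to NOP6, DPM1 and HXT4 (0.85, 0.84 and 0.84), and HXT4 to DSK2, GAL4 and YBR090C (0.91, 0.91 and 0.90). HXT3 shared YBR090C and GAL4 (0.95 and 0.93), followed by OLI1 (0.92). The nearest to RGT2 were STE50, SWF1 and YJL163C (each 0.93), to STD1 GLE2, KTR5 and HRP1 (0.94, 0.92 and 0.90) and to SNF3 RGI1, SPO75 and EGO4 (0.82, 0.82 and 0.80). For RGT1 the nearest were CBK1, ALR1 and SYN8 (0.96, 0.95 and 0.94), and without the 3 arrays their ranks were 135, 675 and 603. Of the other genes named here, OLI1 fell to rank 53 for HXT3, and SWF1 and YJL163C to ranks 49 and 63 for RGT2, while the rest stayed at rank 15 or better.

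Genes that act around the 10 were counted in 6 lists, 68 tested genes in all. With 3-AT 22 passed in wild type, 19 higher and 3 lower (32.4%), and with rapamycin 24, 20 higher and 4 lower (35.3%), both near the shares of all probe sets given above. Of the other hexose transporters, 3 of 13 were tested. GAL2, the galactose permease gene, rose with 3-AT (1.74 ± 0.39, adjusted p = 0.00025) and stood at 0.37 with rapamycin (adjusted p = 0.49). HXT6 and HXT7 share their sequences and so their signal is uncertain; they did not pass with either drug (-0.18 to 0.09). HXT8, HXT10 and HXT14 were too dim to test.

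Of the 7 genes that turn over Mth1 and Std1, 2 rose and 1 fell with 3-AT (42.9%, where 35.8% of all probe sets passed). HRT1 (1.08, adjusted p = 0.0048) and CDC34 (0.88, adjusted p = 0.027), both of the SCF ubiquitin ligase system, rose, and the casein kinase gene YCK1 fell (-0.59, adjusted p = 0.041). HRT1 alone passed with rapamycin (1.07, adjusted p = 0.0046), which is 14.3% of the list, where 37.8% of all probe sets passed. GRR1, for the F-box protein, YCK2, SKP1 and CDC53 stood at -0.50 to 0.84 and did not pass with either drug. Without the 3 arrays 3 of 7 passed with 3-AT and 7 of 7 with rapamycin, where 53.7% and 54.8% of all probe sets did.

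In the Snf1-Mig1 list of 16 genes 3 passed with each drug (18.8%, where 35.8% of all probe sets passed with 3-AT and 37.8% with rapamycin). Without the 3 arrays 7 passed with 3-AT and 9 with rapamycin, where 53.7% and 54.8% of all probe sets did. The kinase gene SNF1 (0.61) and its scaffold gene SIP1 (0.50) rose and the activating subunit gene SNF4 fell (-0.85) with 3-AT. The scaffold gene SIP2 rose (1.01) and the upstream kinase gene TOS3 (-0.74) and GAL83 fell with rapamycin. MIG1, for the repressor of glucose-repressed genes, did not pass with 3-AT (-0.45, adjusted p = 0.065) or rapamycin (0.20, adjusted p = 0.45), but the 3-AT change passed without the 3 arrays (adjusted p = 0.00054). The 3-AT changes of HXK2 (-0.65, adjusted p = 5.9e-05), TUP1 (-0.70, adjusted p = 0.02) and GLC7 (-0.31, adjusted p = 0.0081) likewise passed only without the 3 arrays.

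Of 14 tested glucose-repressed genes 7 passed as higher with 3-AT and 9 with rapamycin, 0 passed as lower, and 7 and 5 did not pass. Over all probe sets 22.2% rose with each drug, and 13.6% and 15.7% fell. The list was chosen with earlier results of these data known, so these shares describe it and do not test it. The glyoxylate cycle gene ICL1 rose by 3.06 with 3-AT and 2.04 with rapamycin, and MLS1, of the same cycle, by 1.07 and 4.15. The activator gene SIP4 rose by 2.66 and 2.58. ADH2 (1.55), the gluconeogenic PCK1 (1.50) and the lactate permease gene JEN1 (1.40) followed with 3-AT, and ACS1 (2.10) and FBP1 (1.48) with rapamycin. Among those that passed with neither drug, SUC2 stood at -0.20 with 3-AT and 0.07 with rapamycin. HXK1 stood at -0.49 and -0.14 and GLK1 at -0.49 and -0.16. Median changes of the list were 0.52 and 1.14, against 0.09 and 0.14 over all probe sets. With the 3 arrays left out, 8 of the 14 passed with 3-AT and 10 with rapamycin, where 53.7% and 54.8% of all probe sets did.

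In the list of glucose sensing through protein kinase A, 2 of 13 tested genes passed with 3-AT (15.4%, against 35.8% of all probe sets) and 5 with rapamycin (38.5%, against 37.8%). Without the 3 arrays 8 passed with each drug, where 53.7% and 54.8% of all probe sets did. The phosphodiesterase genes PDE1 (1.40 with 3-AT, 2.23 with rapamycin) and PDE2 (1.10 with 3-AT) rose. With rapamycin the receptor gene GPR1 (1.17) and IRA2 (0.60), a Ras inhibitor gene, rose, and RAS1 (-1.20) and the kinase gene TPK3 (-0.59) fell. Of 15 stress and stationary phase genes, a class to which HXT5 is related by its expression, 5 rose and 1 fell with 3-AT. With rapamycin 6 rose. That is 40% with each drug, near the 35.8% and 37.8% of all probe sets that passed with 3-AT and rapamycin. With the 3 arrays left out, 8 and 9 of the 15 passed, where 53.7% and 54.8% of all probe sets did. GLG1 (2.39), TPS2 (1.96), GSY2 (1.20) and GPH1 (1.08), of glycogen and trehalose metabolism, rose and SOL4 fell (-1.86) with 3-AT. The chaperone gene SSA3 (3.55), GLG1 (1.64), SOL4 (1.16), GPH1 (0.96) and TPS1 (0.87) rose with rapamycin.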

How the data were processed

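Total RNA of 72 samples was labelled and hybridised to Affymetrix yeast arrays, per the labels' protocols. The deposited values are intensity signals on a linear scale, made by the authors with GCOS and MAS5, per the submitters' processing notes; the sources used here state no versions. Of 9335 probe sets, 60 controls were left out, 6504 had 1 gene, 328 several and 2443 none in the platform annotation, and the brightest probe set stood for a gene. Signals were floored at 16.8 (the 10th percentile), put on the log2 scale and kept if above an array's 30th percentile on at least 4 arrays, leaving 6869 probe sets. Then 18 group means were fitted with limma 3.58.1 in R 4.3.3 (54 residual degrees of freedom). All 28 contrasts were adjusted by Benjamini-Hochberg over the 6869, and a gene was called at an adjusted p under 0.05. The number of arrays limits the precision.

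The 10 members and the 6 pathway lists were chosen with earlier results of these data known. The genes named are the members, the deleted genes and, per list and drug, up to 5 called genes with the largest change. Genes needed to account for a list of up to 7 were named too, and the 3 most like each member by Pearson's r. MIG1, HXK2, TUP1, GLC7, SUC2, HXK1 and GLK1 were named after their values were seen. Same-numbered arrays deviated together (mean r 0.23, against -0.07 for other numbers), and in 9 of 18 comparisons every pair was over 0.1; only there is the blocked value given beside a result. On simulated data 49% of changes of 1 and 94% of changes of 2 log2 units were recovered in 6869 probe sets, for 3-AT against untreated in wild type. Alternatives varied the floor, scaling, filter, probe set choice, arrays fitted, block and variance moderation, and left out single arrays or the 3 that stood apart.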

Additional observations from a re-analysis of the deposited data

Results flagged for a closer look

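In 12 of 180 gene and group combinations there was 1 array far from the other 3 by Dixon's test, where chance gives about 1 in 20; 5 of the 12 were on the 3 arrays with a high actin ratio. Those 5 were HXT1 at 30761 (others 4618 to 6021), RGT1 at 19.7 (others 1279 to 1787) and SNF3 at 275 (others 93.7 to 113) on gcn4 gln3 rapamycin replicate 2, and RGT1 at 239 (others 1493 to 2084) on gcn2 gln3 rapamycin replicate 1 and 534 (others 1828 to 2073) on gcn2 gln3 3-AT replicate 1. The other 7 were smaller. HXT1 was low in replicate 3 of untreated gcn4 (12706, others 15854 to 15941) and of untreated gcn4 gln3 (8136, others 10563 to 10926). HXT2 was high in replicate 1 of gcn2 with 3-AT (1015, others 692 to 739) and low in replicate 3 of gcn2 with rapamycin (1108, others 2382 to 2755). HXT4 was low in replicate 3 of untreated wild type (2004, others 3003 to 3253), RGT1 in replicate 2 of wild type with rapamycin (1092, others 1477 to 1571) and SNF3 in replicate 4 of gcn4 gln3 with 3-AT (52.0, others 93.5 to 100).

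There were 3 differences between genotypes marked because all 4 arrays with 3-AT of one strain lay above the mean of its untreated arrays on the log2 scale and all 4 of wild type lay below theirs. The 3-AT change of HXT5 was 1.54 greater in gcn4 and 1.33 greater in gln3 than in wild type, and that of MTH1 was 1.21 greater in gcn4 gln3, on the log2 scale. These differences were not tested, since both genes were chosen for differences between genotypes.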

How the results depend on the processing

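Counts of members called moved by more than 1.5 times under 6 settings, and the causes were not tested except where fewer arrays or probe sets define the setting. Leaving out the 3 arrays gave 5 in place of 3 with 3-AT in wild type, 4 in place of 2 between untreated strains, 2 in place of 0 for response differences, and 35 and 43 in place of 22 and 24 for the pathway lists with 3-AT and rapamycin. Fitting only the arrays compared gave 7 in place of 4 with rapamycin in wild type, 37 pathway genes with rapamycin, and 1 response difference. Median centring gave 5 with 3-AT in wild type. Quantile normalization gave 1 between untreated strains and 1 response difference, and testing without a filter on dim probe sets gave 1 between untreated strains. With replicate number as a block 1 response difference passed (HXT1 with 3-AT in gcn4, adjusted p = 0.034); the block ended no call of a member, and gave 41 in place of 32 mutant drug calls. In comparisons whose numbers did not pair the samples it added HXT5 (adjusted p = 0.00039) with 3-AT and HXT3 (adjusted p = 0.0072) between drugs in wild type, HXT1 with 3-AT in gcn2 (adjusted p = 0.049) and HXT3 with 3-AT in gcn4 gln3 (adjusted p = 0.021); 61 of 72 arrays correlated best with their own number. Leaving out 1 array gave ranges of 3 to 4 and 3 to 5 members with 3-AT and rapamycin in wild type, 3 to 7 between the drugs, 30 to 40 mutant calls, 0 to 2 between untreated strains, 0 to 2 response differences, and 18 to 32 and 22 to 39 pathway genes. The highest of these counts for rapamycin, the drug difference, mutant calls, response differences and both pathway lists came without gcn4 gln3 rapamycin replicate 2.

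The following 3 changes took the other sign and passed: HXT3 with rapamycin in gcn4 after quantile normalization (0.48, adjusted p = 0.011, as reported -0.03), and RGT1 with rapamycin without the 3 arrays in gcn2 gln3 (0.58) and gcn4 gln3 (0.41). Scaling moved the whole 3-AT comparison in wild type: 62% of calls were higher as reported, 48.8% after quantile normalization and 39.8% after median centring, with the median of all probe sets at 0.09, -0.08 and -0.17. For rapamycin in wild type the share was 58.6%, 51.9% and 47.8%. The floor, a gene's mean probe set and the variance moderation moved no count of member calls beyond 1.5 times. SNF3, above background on 49 of 72 arrays, is the member whose depth of signal limits it most.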
